A study of Homo sapiens with 6 samples.

Results

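The 20 mRNA cleavage and polyadenylation factors described here are the core subunits of the machinery that cuts a pre-mRNA downstream of its poly(A) signal and adds the poly(A) tail. They were chosen by gene name and not by a measured value, although earlier results of these data were known. They made up 20 of the 18905 genes and 99 of the 101314 targeting sgRNAs that were analysed in a genome-wide CRISPR interference (CRISPRi) screen. In this screen, HEK293 FLP In cells, a human embryonic kidney line prepared for the insertion of a transgene by recombination, expressed an APEX2-tagged opioid receptor together with dCas9-KRAB-BFP. The receptor, DOR-MRS(WT)-APEX2, was the delta opioid receptor with the recycling sequence of the mu opioid receptor at its end and the peroxidase APEX2. dCas9-KRAB is a Cas9 without nuclease activity fused to a repressor domain, which silences the promoter that an sgRNA directs it to. All cells of both sorted groups carried these transgenes, came from clonal populations, received 1 of 3 pooled sgRNA sublibraries (H17, H23 or H456) at a multiplicity of about 0.2, were selected with 0.75 μg/ml puromycin, and were grown for 8 days. All were stimulated with 10 μM of the opioid peptide DADLE for 90 min before the reaction of APEX2 with AMPLEX UltraRed (AUR), whose fluorescent product reports the receptor that remains outside acidic lysosomes. These times are those of the sample labels, and the methods of the study give other ones. Cells were sorted into the bottom and the top fluorescence quartile, which gave 1 library each per sublibrary and no replicate. The titles of the samples set the direction, because the short library names that accompany them carry a letter that contradicts the quartile in the title. Cells without agonist were not analysed here, so receptor synthesis and receptor loss after agonist cannot be told apart. The reduction of the members' own mRNA was not measured in these libraries.

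Most human mRNAs receive their 3′ ends in a coupled reaction. A recognition module of the cleavage and polyadenylation specificity factor (CPSF) binds the AAUAAA signal and holds the poly(A) polymerase, a separate module with the endonuclease makes the cut, and the cleavage stimulation factor and the cleavage factors I and II bind flanking RNA or link the reaction to transcription. Cleavage factor I and other subunits also influence which of several poly(A) sites of a transcript is used.

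CRISPRi acts at promoters. The sequences of the sgRNAs were in none of the files used here, and no source used here gives the genome build of their positions, which therefore give only the distance between sgRNAs of a gene, which spanned 218 to 764 bases. The promoter windows of RefSeq (GRCh38.p14) are shown for the sequence just upstream of the starts of FIP1L1 and NUDT21, the members with the strongest negative and positive phenotypes of the sublibrary H23. The first window is the 250 bases before the start of FIP1L1 (chr4:53377391-53377640, plus strand), and the noncoding RNA LOC105377654 starts 5 bases past that start on the opposite strand and runs back toward this window. The other is the 191 bases that separate the start of NUDT21 from the start of OGFOD1 on the opposite strand (chr16:56451333-56451523, minus strand). Both are written 5′ to 3′ on the strand of the named gene. The sgRNAs of these genes spanned 360 and 418 bases, so they cannot all lie in the printed stretches. Capitals mark runs of GG, the constant letters of the NGG motif (protospacer adjacent motif) that Cas9 needs next to its target.
FIP1L1: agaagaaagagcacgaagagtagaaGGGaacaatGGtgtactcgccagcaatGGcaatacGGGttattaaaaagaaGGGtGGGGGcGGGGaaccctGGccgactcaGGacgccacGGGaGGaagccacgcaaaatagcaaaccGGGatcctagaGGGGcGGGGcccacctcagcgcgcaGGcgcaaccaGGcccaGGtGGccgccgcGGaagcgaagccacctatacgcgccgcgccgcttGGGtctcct
NUDT21: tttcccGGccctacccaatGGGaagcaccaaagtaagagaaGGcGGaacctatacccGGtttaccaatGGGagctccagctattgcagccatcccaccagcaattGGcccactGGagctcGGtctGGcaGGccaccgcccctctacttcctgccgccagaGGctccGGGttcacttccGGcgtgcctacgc
The FIP1L1 window held 35 GG pairs on the printed strand and 21 CC pairs, which are GG pairs on the opposite strand, counting overlapping pairs. The stretch between NUDT21 and OGFOD1 held 17 and 29. Such pairs are everywhere in promoters: 100.0% of the 35116 windows of 250 bases in the table held at least 1. Windows were found for 19 members (24 windows, none for CPSF1), and their median was 56 GG and CC pairs and a GC content of 63.0%, against 48 pairs and 58.0% over all windows. A match of these letters is a description of the window and not a site of an sgRNA.

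The effect of an sgRNA was expressed as its phenotype, which is log2 of its share of the reads in the top over the bottom quartile library, minus the same log2 ratio at the median of its sublibrary's nontargeting control (NTC) sgRNAs. A negative phenotype means more reads in cells of low AUR fluorescence. The phenotype of a gene is the mean over the sgRNAs of its start site, given with the SD over these sgRNAs, which target 1 promoter and are not replicates of the sort. Because the libraries of a sublibrary differed in depth, an sgRNA without effect had a ratio of top to bottom reads of 0.805 in H17, 1.19 in H23 and 0.588 in H456 (medians of the NTC sgRNAs). Genes were tested with an exact two-sided Mann-Whitney test of their sgRNAs against the NTC sgRNAs, adjusted over all genes by the Benjamini-Hochberg procedure, and P values therefore describe sgRNAs within 1 sort. The 6 libraries held 23426498 to 50486627 reads. The central 95% of the NTC sgRNAs, called the NTC range here, lay from −1.21 to 0.59 in H17, from −0.64 to 0.51 in H23 and from −0.57 to 0.57 in H456, so an sgRNA of H17 had to move farther to leave it.

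As a group, the factors leaned toward low fluorescence, and the sgRNAs beyond the NTC range came mostly from 1 module. A negative phenotype was found for 16 of the 20 members, against 49.6% of all genes, and the median member phenotype was −0.12, against 0.001 over all genes. Of the 99 sgRNAs, 66 were negative (66.7%, against 48.9% of all targeting sgRNAs). Below the NTC range lay 17 of them (17.2%), where 2.4% of all targeting sgRNAs lay, and above it lay 4 (4.04%), where 2.77% of all lay. The recognition module, with CPSF1, CPSF4, FIP1L1 and WDR33, held 13 of these 17, or 65.0% of its 20 sgRNAs. The other 16 genes held the remaining 4 among 79 sgRNAs (5.06%), along with all 4 above the range. The median sgRNA phenotype was −0.86 in the recognition module and −0.08 in the other members, whose lean was thus slight. No test between modules was made.

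CPSF1 and FIP1L1 passed the adjusted exact P threshold of 0.05, both negative, which 0.381% of all genes did in this direction. None of the members did so with a positive phenotype, as 0.0952% of all genes did. With a positive phenotype, 2 members (NUDT21 and CSTF2T) had an unadjusted exact P below 0.05, beside 769 of all 18905 genes. By the pseudogene rule, which scores effect and P together and sets the threshold so that less than 10% of the items past it are pseudogenes made of 5 NTC sgRNAs, CPSF1, FIP1L1 and CSTF1 were hits on the negative side (0.704% of all genes) and NUDT21 on the positive side (0.201% of all genes). An unadjusted exact P below 0.05 was found for 7 of the 20 members, 5 negative and 2 positive, a higher share than the 8.12% of all genes. Of all 18905 genes, 766 were negative and 769 positive below that P. The ranges of sgRNA phenotypes of neighbours in the order of the members overlapped throughout, from CPSF1 as the lowest to CSTF2T as the highest.

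CPSF1, the largest CPSF subunit and the scaffold of the recognition module, had the strongest phenotype of the factors, and every sgRNA contributed to it. In reads of the bottom and the top quartile library, its 5 sgRNAs had 3231 and 1041, 1093 and 272, 2108 and 486, 3358 and 1091, and 1610 and 490. All 5 ratios lay under the 0.588 of a neutral sgRNA in H456, and all 5 phenotypes (−0.87, −1.24, −1.35, −0.86 and −0.95) lay below the NTC range. The gene phenotype was −1.05 ± 0.23 (SD, 5 sgRNAs), a 2.07-fold higher share in the bottom quartile (adjusted exact P = 1.77e-05), and 22nd lowest of the 18905 genes. Counting error was small beside this, with SDs of 0.05 to 0.10 for single sgRNAs on the log2 scale.

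FIP1L1, which binds U-rich RNA next to the poly(A) signal and holds the poly(A) polymerase, gave the other phenotype past the threshold. Its sgRNAs had 1238 and 734, 791 and 399, 772 and 573, 987 and 917, and 3491 and 2492 reads in the bottom and the top library. In H23, where a neutral sgRNA has more reads in the top library, all 5 had fewer there. Their phenotypes were −1.0, −1.23, −0.68, −0.35 and −0.73, and only the fourth of them lay inside the NTC range. The gene phenotype was −0.80 ± 0.34 (SD, 5 sgRNAs; adjusted exact P = 0.000939), rank 74 from the lowest. Its strongest pair of sgRNAs lay 4 bases apart on the same strand.

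CPSF4 and WDR33, the subunits that contact the AAUAAA signal itself, each had a split set of sgRNAs. For CPSF4, which reads the signal through its zinc fingers, the bottom and top reads were 3216 and 884, 287 and 87, 884 and 500, 1223 and 699, and 2046 and 1163. The first pair of sgRNAs gave phenotypes of −1.10 and −0.95, below the NTC range, and the other 3 gave −0.05, −0.04 and −0.05, close to neutral. Its mean of −0.44 ± 0.54 (SD, 5 sgRNAs) therefore differed from its median of −0.05, and did not pass (adjusted exact P = 0.582). The 3 near-neutral sgRNAs lay 407 to 475 bases from the first one, and the strong second one lay 377 bases from it. For WDR33, the WD-repeat subunit, the reads were 2849 and 2768, 1742 and 1128, 643 and 751, 1451 and 837, and 179 and 232, with phenotypes of −0.29, −0.87, −0.02, −1.04 and 0.13. Again 2 sgRNAs lay below the range, and the gene (−0.42 ± 0.52, SD, 5 sgRNAs) did not pass (adjusted exact P = 0.65). The WDR33 sgRNAs at −0.02 and −1.04 lay 10 bases apart on the same strand.

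The cleavage module, which holds the endonuclease, was weaker in its phenotypes although all 3 genes were negative. CPSF3, the endonuclease, had sgRNA phenotypes of −0.38, −0.06, −0.58, −0.26 and 0.25, and a mean of −0.21 ± 0.32 (SD, 5 sgRNAs; adjusted exact P = 0.741). The third of them, with 925 bottom and 363 top reads, was just below the NTC range. CPSF2, its inactive partner of the same protein family, had 1 strong sgRNA, at −0.76 with 1771 and 613 reads, and 4 between −0.13 and 0.21, which gave −0.18 ± 0.35 (adjusted exact P = 0.815). SYMPK, the scaffold symplekin, had 4 sgRNAs between −0.33 and −0.17 and 1 at 0.59, the latter with only 176 bottom and 315 top reads and above the NTC range, so its mean was −0.08 ± 0.38. None of the 3 passed the adjusted exact test, nor had any an unadjusted exact P below 0.05.

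Subunits of the cleavage stimulation factor, which binds the GU-rich element downstream of the cut, went in different directions. CSTF1, the WD-repeat subunit, was negative for all of its sgRNAs, with 1711 and 694, 860 and 408, 1325 and 572, 1037 and 359, and 2045 and 1091 bottom and top reads and phenotypes of −0.53, −0.31, −0.45, −0.76 and −0.14. Its phenotype of −0.44 ± 0.24 (SD, 5 sgRNAs) was as low as that of CPSF4 with less spread, met the pseudogene rule, and missed the threshold of the exact test after adjustment (adjusted exact P = 0.0684). CSTF2T, the autosomal paralog of the RNA-binding subunit CSTF2, was the highest member at 0.41 ± 0.31. Its reads were 304 and 222, 884 and 729, 1653 and 952, 309 and 323, and 847 and 670, which gave 0.31, 0.49, −0.03, 0.83 and 0.43. One of these, the fourth, lay above the NTC range, and the gene did not pass (adjusted exact P = 0.292). CSTF2 itself had phenotypes of 0.22, 0.26, −0.19, 0.01 and 0.29 (mean 0.12 ± 0.20), all within the NTC range. CSTF3, the subunit that bridges the others, stayed within −0.17 and 0.01 over its sgRNAs (−0.09 ± 0.09).

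Cleavage factor I, which binds UGUA motifs upstream of the poly(A) site, held the only positive hit. NUDT21, its RNA-binding subunit, had 481 and 631, 1039 and 1850, 1431 and 2584, 286 and 454, and 1328 and 1801 bottom and top reads. All 5 ratios were above the 1.19 of a neutral sgRNA in H23. The phenotypes were 0.15, 0.59, 0.61, 0.42 and 0.19, of which the second and the third lay above the NTC range. Its mean of 0.39 ± 0.21 (SD, 5 sgRNAs) corresponded to a 1.31-fold higher share in the top quartile and the 140th highest rank, and met the pseudogene rule but not the adjusted exact threshold (adjusted exact P = 0.138). The lowest NUDT21 sgRNA (0.15) was higher than the highest FIP1L1 sgRNA (−0.35) in the same pair of libraries. These genes are the highest and the lowest members of H23, so a gap between them was favoured by how they were picked. The larger subunits did not follow it: CPSF6 had sgRNAs from −0.17 to 0.25 (0.06 ± 0.17), and CPSF7 had 4 from 0.02 to 0.41 and 1 at −0.68 with 1562 and 573 reads, below the NTC range (−0.02 ± 0.40). Neither had an unadjusted exact P below 0.05.

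Phenotypes of the remaining factors stayed within the NTC range for every sgRNA. In H17, where that range is widest, PCF11, the cleavage factor II subunit that binds the tail of RNA polymerase II, had phenotypes of −0.56, −0.40, 0.16 and −0.73 over its 4 sgRNAs (−0.38 ± 0.39, adjusted exact P = 0.675). PAPOLA, the main nuclear poly(A) polymerase, had 1 sgRNA at −1.04 with 548 bottom and 214 top reads, and 4 between −0.21 and 0.30 (−0.13 ± 0.55). CLP1, the RNA kinase of cleavage factor II, was at −0.07 ± 0.25, the poly(A) polymerase paralog PAPOLG at −0.05 ± 0.15, and RBBP6, an activator of cleavage, at −0.11 ± 0.10. PABPN1, the nuclear poly(A)-binding protein that controls tail length, was low in size but uniform: its sgRNAs gave −0.10, −0.20, −0.42, −0.18 and −0.12, with a mean of −0.20 ± 0.13 (unadjusted exact P = 0.0227, adjusted 0.491).

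The sgRNAs of 1 gene differed also at close range. The median SD over the sgRNAs of a member was 0.28 on the log2 scale, against 0.24 for all genes, while the counting SD of a member sgRNA had a median of 0.068. The NTC sgRNAs, which have no target, had SDs of 0.47 in H17, 0.28 in H23 and 0.30 in H456, so this spread was not particular to the members. In 9 same-strand pairs of member sgRNAs no more than 10 bases apart, the phenotypes differed by 0.03 to 1.02, with a median of 0.24. The sign was shared in 5 of the 9 pairs and opposite in 4 (CSTF3, CLP1, PAPOLA and RBBP6). Both sgRNAs of each of these 4 pairs lay within the NTC range. The CPSF1 pair 7 bases apart gave −1.35 and −0.86, and the CSTF1 pair 9 bases apart gave −0.45 and −0.76.

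Because CRISPRi can silence a promoter next to its target, the genes with sgRNAs within 1000 bases of those of a member were compared. There were 7 of these at 6 members, and none shared an sgRNA with a member. OGFOD1, which starts across the stretch printed above and whose nearest sgRNA lay 202 bases from one of NUDT21, had a phenotype of −0.09 ± 0.33 (SD, 5 sgRNAs; adjusted exact P = 0.954), against 0.39 for NUDT21. AURKA, a mitotic kinase with an sgRNA 265 bases from one of CSTF1, had 0.14 ± 0.35 (adjusted exact P = 0.893), against −0.44 for CSTF1. These pairs lay in different sublibraries, so their values come from separate sorts. The other neighbours were ATP5J2-PTCD1 (−0.11) and PTCD1 (−0.08) at CPSF4, NDUFB1 (−0.06) at CPSF2, ITGB1BP1 (−0.02) at CPSF3 and SDHAF2 (0.12) at CPSF7. None of the 7 had an unadjusted exact P below 0.05. CPSF1 and FIP1L1 had no neighbour of this kind among the genes analysed, so LOC105377654 beside FIP1L1 was not compared.

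Many of these factors are needed for growth, so the abundance of their sgRNAs was examined as a measure that does not use the ratio of the quartiles. Read abundance was log2 of the mean share of both libraries over the NTC median. Its median over the members was −0.19, against −0.08 over all genes, and ran from −0.83 (SYMPK) to 0.79 (CPSF6). The lower median was not seen in both quartiles: it was 0.00593 in the bottom libraries alone and −0.30 in the top ones alone. None of the members passed the adjusted exact test below the NTC sgRNAs (0.0793% of all genes did) or above them (0.175% did). Unadjusted exact P values under 0.05 were found for 3, with fewer reads for SYMPK (0.0419) and more for CPSF6 (0.0201) and PABPN1 (0.0321), beside 2268 of all 18905 genes, which is a like share. CPSF1 stood at 0.36 ± 0.73 and FIP1L1 at −0.23 ± 0.92 (SD, 5 sgRNAs each), with exact P values of 0.244 and 0.411. Only 4 member sgRNAs had an abundance below −2, and these had phenotypes of −0.95 (CPSF4), 0.13 (WDR33), 0.59 (SYMPK) and 0.01 (CSTF2). The makeup of the pools before transduction was not analysed here, so abundance mixes it with growth.

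Other factors of mRNA 3′ ends were divided in sign. Of 25 genes listed by role, 10 had a negative and 15 a positive phenotype, where 49.6% of all genes were negative, with a median of 0.03. None passed the adjusted exact threshold or the pseudogene rule. An unadjusted exact P below 0.05 was found for 5 of the 25, 2 negative and 3 positive, a higher share than the 8.12% of all genes. Over all 18905 genes, 766 negative and 769 positive ones had such a P. The largest phenotype was that of PPP1R10 (PNUTS), a phosphatase subunit of transcription termination, at −0.50 ± 0.44 (unadjusted exact P = 0.0114). Next came SLBP, which binds the stem-loop of histone mRNAs, at 0.37 ± 0.22 (0.00126), and CASP8AP2 at 0.31 ± 0.45 (0.158). LSM10, a subunit of the U7 particle that directs the histone cut, followed at 0.27 ± 0.25 (0.0244). The 5 genes of histone 3′ ends had a median of 0.27, with 4 positive, and 2 of them had an unadjusted exact P below 0.05.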

How the data were processed

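The authors recovered sgRNA cassettes from genomic DNA of sorted cells by 27 cycles of PCR without molecular identifiers. Reads were shortened to 38 bp and assigned to sgRNAs by ScreenProcessing (version 0.1). What the authors deposited for each of 6 libraries is a table of raw counts per sgRNA without normalization. Groups were taken from the sample titles. The member genes, their modules and the list of other 3′ end factors were chosen by name, with earlier results of these data known. All 20 members, neighbours within 1000 bases and up to 4 genes of the other list were named. Of the genes of this rule, 1 is not reported here.

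sgRNAs with at least 10% of their reads in their gene's sublibrary and at least 50 reads in 1 of both libraries were analysed, which kept 96.2% to 98.5% of reads. Of 200 member sgRNAs listed, 10 per gene, 99 were analysed. The study itself counts 5 sgRNAs per gene in its screen. Each member had 1 start site, and PCF11 had 4 sgRNAs and the others 5. Phenotypes used shares of analysed reads. An sgRNA with a count of 0 in either library had 1 added in both. Pseudogenes were drawn from 5 NTC sgRNAs each, as many as genes, with seed 1, and the score was the phenotype over their SD times −log10 of the normal-approximation Mann-Whitney P. Counting SDs cover counting error only, since PCR reads are not independent molecules.

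With 1 library per group no count model can be tested. edgeR (version 4.0.16) gave TMM factors as an alternative centring, and Python (version 3.11.15) with SciPy (version 1.17.1) ran the tests. The procedure was tested on simulated data. Alternatives were other read minimums, added counts, centrings, summaries over sgRNAs, comparison sets and pseudogene draws.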

Additional observations from a re-analysis of the deposited data

Results flagged for a closer look

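Reads of the member sgRNAs also appeared in libraries of sublibraries to which these sgRNAs do not belong, and these reads enter no comparison above. They made up 0.616% of the members' reads (1395 beside 225162 in their own sublibrary), from 0.309% for WDR33 to 1.32% for CSTF3. CPSF1 had 132 such reads beside 14780, and FIP1L1 had 73 beside 12394. Their source was not tested.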

How the results depend on the processing

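CPSF1 and FIP1L1 passed the adjusted exact threshold under each of the 13 alternatives run, with phenotypes from −1.18 to −0.95 and from −0.99 to −0.69 and adjusted exact P values up to 0.00097 and 0.0292, and no other member passed under any of them. Not all of these could change the test. It uses ranks, so other centrings, the median and the mean of the 3 strongest sgRNAs left its P values as they were. Each member had 1 start site, so pooling start sites left its sgRNAs unchanged. Where genes were summarized otherwise, pseudogenes were still scored by the plain mean of 5 NTC sgRNAs. The limit of 10% pseudogenes does not hold as stated there, so such hits are not of the same strictness. By the pseudogene rule, 7 members were hits with the mean of the 3 strongest sgRNAs (CPSF4, WDR33 and CSTF2T in addition). Only 2 (CPSF1 and FIP1L1) were hits without the strongest sgRNA of each gene, as well as 2 with less than 5% pseudogenes. Over all genes, hits by that rule were 171, against 586, 35 and 97 under these settings in turn and 501 when sgRNAs of olfactory receptor genes replaced the NTC sgRNAs. Under that set WDR33 was a hit in place of CSTF1, and with a minimum of 1 read CSTF1 was not a hit. CSTF1 and NUDT21 were hits under pseudogene seeds 2 to 6. Genes past the adjusted exact threshold were 90, against 22 without the strongest sgRNA and 50 with the olfactory set. The 586 and the 35 come from settings that changed the summary of genes but not that of pseudogenes. Leaving out the strongest sgRNA also took 1 sgRNA of a gene out of the exact test, with the NTC sgRNAs unchanged. Any further cause of these differences was not tested.

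Among the 13 alternatives, the sign turned for CLP1, CPSF7, PAPOLA and SYMPK and for no other member. Leaving out the strongest sgRNA gave phenotypes of 0.0279 for CLP1, 0.15 for CPSF7 and 0.0929 for PAPOLA. With the median over sgRNAs they were 0.0533 for CPSF7 and 0.0368 for PAPOLA, and with the mean of the 3 strongest that of SYMPK was 0.000135. Members with a negative phenotype, 16 in the main setting, numbered 14 with the median, 15 with the mean of the 3 strongest and 13 without the strongest sgRNA. The median read abundance of the members was 0.00593 in the bottom quartile libraries alone and −0.30 in the top ones alone. The count of sgRNAs below the NTC range was not run with other summaries over sgRNAs or pooled start sites, which do not enter it. No paired analysis was possible because each group has 1 library. Each sublibrary was sorted once, and counting SDs of 0.038 to 0.177 say nothing of how a sort would repeat.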
